A study of Rattus norvegicus with 12 samples.

Results

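Beta-2-microglobulin and the regulators of the proteasome that lie outside the major histocompatibility complex (MHC) were followed across the 4 groups of the study in 4 genes, B2m, Psme1, Psme2 and Psmf1, of the 30562 genes in the count tables. B2m encodes the light chain that MHC class I molecules share, Psme1 and Psme2 encode the alpha and beta subunits of a proteasome activator, and Psmf1 encodes a proteasome inhibitor. The 4 genes were taken from the study's own table of genes called in CTK-2 versus CTL, so their calls in that comparison are a description, whereas CTK2+GAL versus GAL uses the other 6 libraries. All 4 passed the filter on low values (a mean of 5 counts over the libraries) with 13348 genes in all, which were tested.

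The RNA came from primary oligodendrocyte precursor cells (OPCs) of the cortices of wild-type Sprague-Dawley rat pups of both sexes at postnatal days 0 to 2, shaken off mixed glial cultures and expanded before use. All groups were switched to differentiating medium with T3 (thyroid hormone) at the time of treatment. CTL received neither cytokines nor galinex, and GAL received galinex, an agonist of the receptor GPR17, at 10 nM. CTK-2 received a mixture of 2 ng/mL of each of the cytokines IFN-γ, TNF-α and IL-1β, and CTK2+GAL received the same mixture followed after 6 h by 10 nM galinex. Cultures without galinex got its solvent DMSO at that step, and RNA was taken 24 h later from 3 libraries in each group. The labels do not say whether the replicates were separate cultures or preparations, so the p-values measure only the spread between these libraries.

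Cells display fragments of their own proteins to CD8+ T cells on MHC class I molecules, whose heavy chains reach the surface only when bound to beta-2-microglobulin. The fragments are cut by the proteasome, and the activator formed by the Psme1 and Psme2 products opens the core particle and favours the release of peptides suited to class I. Transporters in the endoplasmic reticulum membrane and trimming peptidases then carry and shorten them. IFN-γ is known to raise these genes in many cell types, and healthy oligodendrocytes are known for low class I levels.

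The promoter letters are shown because B2m, Psme1 and Psme2 moved together across the libraries and Psmf1 did so in part, as described further on. RefSeq's table for the rat build GRCr8 held a start site for each of the 4 genes. The 250 bases before that start are printed 5′ to 3′ on the gene's strand, in lower case, with matches to the searched motifs in capitals.
B2m (chr3:129549080-129549329, plus strand): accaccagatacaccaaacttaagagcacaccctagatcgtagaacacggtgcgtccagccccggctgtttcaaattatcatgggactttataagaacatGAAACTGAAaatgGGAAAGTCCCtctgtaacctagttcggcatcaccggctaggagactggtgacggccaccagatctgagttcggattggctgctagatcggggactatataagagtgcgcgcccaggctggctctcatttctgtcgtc
Psme1 (chr15:33038721-33038970, plus strand): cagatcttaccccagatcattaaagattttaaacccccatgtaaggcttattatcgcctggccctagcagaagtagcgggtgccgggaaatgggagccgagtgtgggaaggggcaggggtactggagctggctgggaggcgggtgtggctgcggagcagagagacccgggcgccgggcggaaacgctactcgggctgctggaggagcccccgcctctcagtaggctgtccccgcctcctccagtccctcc
Psme2 (chr15:33052752-33053001, minus strand): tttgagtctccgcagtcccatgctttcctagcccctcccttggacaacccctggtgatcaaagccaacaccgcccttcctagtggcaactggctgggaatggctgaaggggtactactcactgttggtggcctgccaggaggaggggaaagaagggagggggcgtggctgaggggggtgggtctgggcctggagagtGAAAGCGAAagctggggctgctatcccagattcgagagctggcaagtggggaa
Psmf1 (chr3:160720916-160721165, minus strand): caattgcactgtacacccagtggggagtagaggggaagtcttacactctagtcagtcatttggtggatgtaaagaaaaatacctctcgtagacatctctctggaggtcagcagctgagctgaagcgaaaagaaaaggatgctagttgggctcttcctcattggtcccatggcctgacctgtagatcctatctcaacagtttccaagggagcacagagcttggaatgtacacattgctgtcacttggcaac

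In these windows B2m held a match to GAAANNGAA, the repeat found in interferon-stimulated response elements, at positions -150 to -142 from the start, written GAAACTGAA. At -137 to -128 the printed strand reads GGAAAGTCCC, which matches the NF-κB consensus when read on the other strand. The Psme2 window held the interferon repeat nearer to the start, at -53 to -45, as GAAAGCGAA. Neither Psme1 nor Psmf1 held a match to any of the 3 motifs, and none of the 4 held TTCNNNGAA, the gamma-activated site. Searched on both strands from 250 bases before to 50 after the start, the interferon repeat was in 9.71% of all 33469 promoters of the table, the gamma-activated site in 8.87% and the NF-κB consensus in 4.18%. A match describes letters only, and the absence of one says nothing about the factor.

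The library totals ranged from 2600797 counts in GAL replicate 1 to 8978185 in CTK2+GAL replicate 3, and the other 10 lay between 4718825 and 6169733. Levels are given as CPM, counts scaled to a common library size after normalization by edgeR's TMM method. In replicate 3 of CTL and replicate 3 of GAL, 176 of the 13348 tested genes (1.32%) stood at least 2-fold above both other libraries of the group in both groups, and B2m, Psme1 and Psme2 were 3 of them. Replicate 3 of the cytokine groups did not stand apart in this way for these genes. Among oligodendrocyte lineage markers, Pdgfra, Mag and Mog had counts in every group, and other such markers are not given here. The symbols of these 3 came from the study's table of genes called under cytokines, so their change between the groups is fixed by the choice. Pdgfra lay between 381 and 456 CPM in CTL and GAL and between 655 and 754 CPM in CTK-2 and CTK2+GAL. Mag lay between 153 and 198 CPM without cytokines and between 73.7 and 88.3 CPM with them. Mog was low, between 5.84 and 6.98 CPM without cytokines and between 1.85 and 3.91 CPM with them.

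B2m, the light chain gene, was the member with the highest level under cytokines and the widest change. It lies on the plus strand of chromosome 3 (ENSRNOG00000017123, mRatBN7.2 chr3:109095729-109101766), with an exonic length of 1951 bases. In CTL it stood at 21.5 CPM in replicate 1, 27.0 in replicate 2 and 792 in replicate 3. In GAL the values were 22.9, 32.15 and 823 CPM in the same order. All CTK-2 libraries were far above these, with 2933, 3303 and 3111 CPM, as were the CTK2+GAL libraries with 3047, 3429 and 3570 CPM. Replicate 3 of CTL and of GAL therefore lay between the cytokine libraries and the other replicates of their own groups, and no library without cytokines reached one with cytokines. Ranked by CPM per kb among the 13348 tested genes, B2m was 17th or 18th in every library with cytokines, 81st and 89th in replicate 3 of CTL and GAL, and between ranks 4360 and 5895 in their other replicates.

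The B2m group means were 280.3 ± 443.5 CPM in CTL and 292.5 ± 459 in GAL, against 3116 ± 185 in CTK-2 and 3349 ± 271 in CTK2+GAL (SD, n = 3 each). The edgeR quasi-likelihood test gave a log2 fold change of 3.50 (SE 1.14) in CTK2+GAL versus GAL, an 11.3-fold rise with a 95% interval of 1.09 to 5.90 on the log2 scale and a Benjamini-Hochberg adjusted p of 0.0209. In CTK-2 versus CTL the log2 fold change was 3.47 (SE 1.14, adjusted p = 0.0216 by edgeR). Both calls were lost when a low library was left out. Without CTL replicate 1 or replicate 2 the edgeR adjusted p in CTK-2 versus CTL was 0.0628 or 0.0614, and without GAL replicate 1 or replicate 2 that in CTK2+GAL versus GAL was 0.0649 or 0.0669. Without replicate 3 of CTL and of GAL, a choice made after seeing the data, the log2 fold change was 7.01 (SE 0.109) in CTK-2 versus CTL and 6.85 (SE 0.110) in CTK2+GAL versus GAL, a 116-fold difference in the latter.

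**Figure D1:**
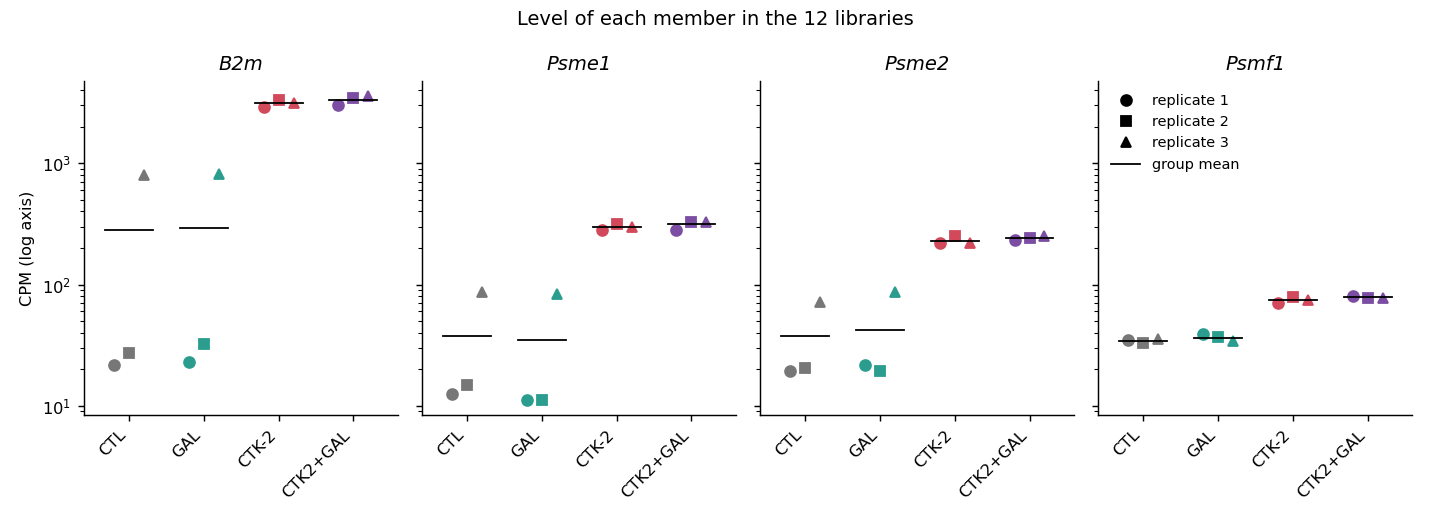
CPM on a log axis in each of the 12 libraries for B2m, Psme1, Psme2 and Psmf1, by group, with a symbol for each replicate number and a line at the group mean. In B2m, Psme1 and Psme2 the triangles of CTL and GAL (replicate 3) sit between the other replicates and the cytokine groups, while in Psmf1 they sit among the other replicates.

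Psme1 and Psme2, the genes of the proteasome activator, rose together. They face each other on chromosome 15, Psme1 on the plus strand (ENSRNOG00000019041, mRatBN7.2 chr15:29068729-29071890) and Psme2 on the minus strand (ENSRNOG00000019246, chr15:29078500-29082946), with 6609 bases between their 3′ ends. Psme1 stood at 12.4, 14.7 and 86.1 CPM in CTL replicates 1, 2 and 3 and at 11.25, 11.22 and 82.8 CPM in GAL. Under cytokines it stood at 284, 318 and 297 CPM in CTK-2 and at 284, 325 and 329.6 CPM in CTK2+GAL. The groups with and without cytokines did not overlap, and replicate 3 of CTL and of GAL was again in between. Psme2 had 19.4, 20.7 and 72.0 CPM in CTL and 21.7, 19.4 and 86.1 CPM in GAL. Its values were 220.4, 250.6 and 219 CPM in CTK-2 and 234, 239.7 and 250.4 CPM in CTK2+GAL, all above every library without cytokines.

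The rise of Psme1 in CTK2+GAL versus GAL was 8.16-fold, a log2 fold change of 3.03 (SE 0.547, 95% interval 1.88 to 4.18, edgeR adjusted p = 0.00021). That of Psme2 was 5.34-fold, with a log2 fold change of 2.42 (SE 0.399, 95% interval 1.58 to 3.26, edgeR adjusted p = 8.6e-05). In CTK-2 versus CTL the log2 fold changes were 2.95 (SE 0.536) for Psme1 and 2.59 (SE 0.399) for Psme2. Without replicate 3 of CTL and of GAL they became 4.47 and 3.52 in CTK-2 versus CTL and 4.80 and 3.58 in CTK2+GAL versus GAL, each with an SE of at most 0.115. No call of either gene was lost when any single library of the compared groups was left out.

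A copy annotated as Psme1-ps1 (ENSRNOG00000061359, mRatBN7.2 chr17:50174186-50175160), a pseudogene of Psme1, carried counts as well. It held 0, 1 and 10 counts in CTL and 0, 0 and 7 in GAL, against 15 to 40 counts in each library with cytokines. These were at most 1.88% of the Psme1 counts of the same library. Pairs that map to both places were not counted, so the division of reads between the gene and its copy is uncertain.

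Psmf1, the inhibitor gene, changed least of the 4 and had the smallest error. It spans chr3:140235373-140260546 on the minus strand of mRatBN7.2 (ENSRNOG00000009640). CTL replicates 1, 2 and 3 had 34.9, 32.8 and 35.5 CPM, and GAL had 38.8, 36.8 and 34.0 CPM. CTK-2 had 69.85, 78.1 and 74.85 CPM, and CTK2+GAL had 80.5, 77.4 and 78.1 CPM. Every library with cytokines exceeded every library without them, and replicate 3 of CTL and of GAL did not stand apart. The rise was 2.17-fold in CTK2+GAL versus GAL, a log2 fold change of 1.12 (SE 0.0732, 95% interval 0.965 to 1.27, edgeR adjusted p = 9e-10). It was 2.16-fold in CTK-2 versus CTL (log2 fold change 1.11, SE 0.0727). Without replicate 3 of CTL and of GAL these log2 fold changes were 1.07 and 1.13.

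All 4 genes passed the thresholds (adjusted p at most 0.05, absolute log2 fold change at least 0.59) as higher in CTK2+GAL versus GAL, where edgeR called 11.7% of the tested genes higher. In all 4 every CTK2+GAL library was above every GAL library, which held for 25.5% of the tested genes. The corresponding shares in CTK-2 versus CTL were 11.5% called higher and 25.2% without overlap. The 4 genes met both there, but they were chosen for their change in that comparison, so this is a description. As they were chosen for a change under the same cytokines, their counts in CTK2+GAL versus GAL show that it was seen in other libraries and not that these genes stand out. DESeq2 called Psme2 and Psmf1 in both comparisons. For B2m and Psme1 it gave log2 fold changes (3.52 and 3.16 in CTK2+GAL versus GAL) but no p-value, so it did not test them. Bulk RNA cannot tell apart more cells of a type from more RNA per cell.

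**Figure D2:**
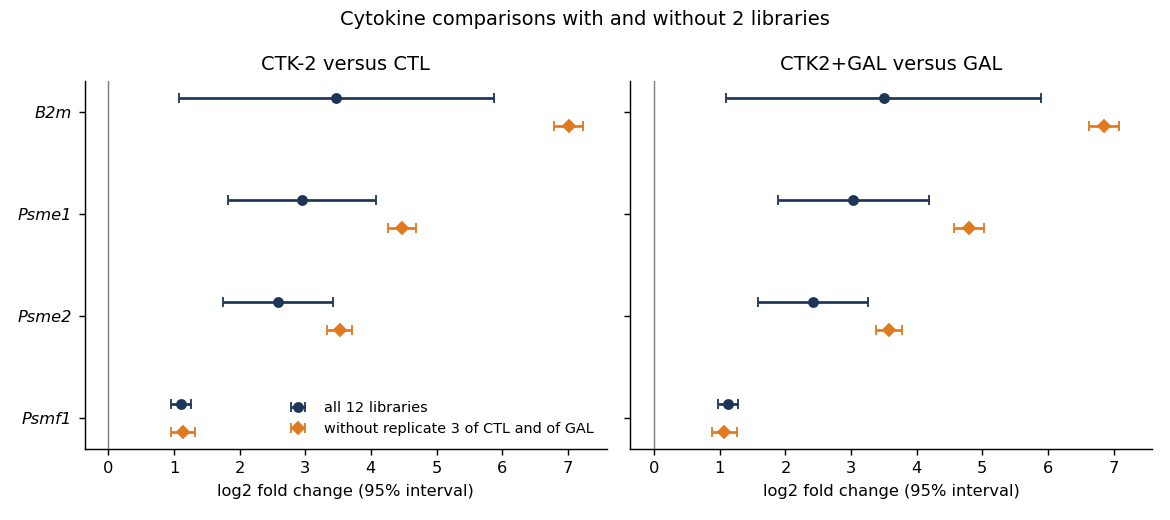
Log2 fold changes of the 4 genes with 95% intervals from edgeR, in CTK-2 versus CTL and in CTK2+GAL versus GAL, from all 12 libraries (circles) and without replicate 3 of CTL and of GAL (diamonds). The B2m intervals run from about 1.1 to 5.9 with all libraries and lie near 7 without the 2, while Psmf1 stays near 1.1 in both fits.

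The effect of galinex on these genes was asked by GAL versus CTL, without cytokines, and by CTK2+GAL versus CTK-2, with them. The order of the group means of B2m, Psme2 and Psmf1 was CTL, GAL, CTK-2 and CTK2+GAL, and Psme1 had GAL below CTL. The libraries of CTL and GAL overlapped in each gene, as did those of CTK-2 and CTK2+GAL. In GAL versus CTL the edgeR log2 fold changes were 0.08 (95% interval -2.13 to 2.29) for B2m, -0.01 (-1.30 to 1.27) for Psme1, 0.25 (-0.712 to 1.20) for Psme2 and 0.07 (-0.103 to 0.243) for Psmf1. In CTK2+GAL versus CTK-2 they were 0.10 (-2.07 to 2.27) for B2m, 0.06 (-0.898 to 1.03) for Psme1, 0.07 (-0.645 to 0.788) for Psme2 and 0.08 (-0.0561 to 0.216) for Psmf1. edgeR called 0 of the 4 in either comparison, and 0 had an unadjusted p under 0.05. DESeq2 also called 0, with no adjusted p for B2m and Psme1. Both tools called 0% of all tested genes there, at 574 and 545 genes with an unadjusted edgeR p under 0.05.

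The wide intervals of CTK2+GAL versus CTK-2 hold the spread of CTL and GAL, because the 4 groups share 1 estimate of it. With CTK-2 and CTK2+GAL alone in the fit, the 95% intervals of the log2 fold change were -0.00357 to 0.206 for B2m, -0.0453 to 0.171 for Psme1, -0.0375 to 0.177 for Psme2 and -0.0581 to 0.210 for Psmf1. In GAL versus CTL, pairing the libraries by replicate number within these groups, a choice made after seeing the data, gave -0.0554 to 0.255 for B2m, -0.360 to 0.0941 for Psme1, -0.0570 to 0.368 for Psme2 and -0.135 to 0.290 for Psmf1. All 8 of these intervals stay within the fold change threshold of 0.59 in either direction, but those of GAL versus CTL depend on the pairing. Whether replicates 1 and 2 of CTL belong with the same numbers of GAL was not tested. With CTL and GAL alone in the fit and no pairing, the intervals were -2.62 to 2.79 for B2m and -1.68 to 1.6 for Psme1. For Psme2 and Psmf1 they were -0.982 to 1.43 and -0.132 to 0.286, so only Psmf1 stayed within the threshold. The interaction, which asks whether galinex changed the cytokine response, was not called for any of the 4. Its edgeR log2 difference was 0.03 (95% interval -3.07 to 3.12) for B2m and 0.08 (-1.53 to 1.68) for Psme1. For Psme2 and Psmf1 it was -0.17 (-1.37 to 1.02) and 0.01 (-0.21 to 0.23), so only the Psmf1 interval stayed within the threshold. edgeR and DESeq2 called 0% of the tested genes for the interaction, with 376 at an unadjusted edgeR p under 0.05, none of the 4 among them.

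The activator and inhibitor transcripts also changed relative to each other. Per length, Psme1 was below Psme2 in replicates 1 and 2 of CTL (ratios of CPM per kb of 0.676 and 0.755) and of GAL (0.549 and 0.613). Replicate 3 had 1.27 in CTL and 1.02 in GAL. All libraries with cytokines had Psme1 above Psme2, with ratios of 1.34 to 1.44 in CTK-2 and 1.29 to 1.44 in CTK2+GAL. Psme1 stood at 0.313 to 0.483 of Psmf1 per length in replicates 1 and 2 of CTL and GAL, at 2.61 and 2.62 in replicate 3, and between 3.80 and 4.55 in the libraries with cytokines. Psme2 relative to Psmf1 moved from between 0.536 and 0.640 in those replicates to 2.06 and 2.57 in replicate 3 and 2.96 to 3.26 under cytokines. The ratios with and without cytokines did not overlap, and they are given without a test.

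**Figure D3:**
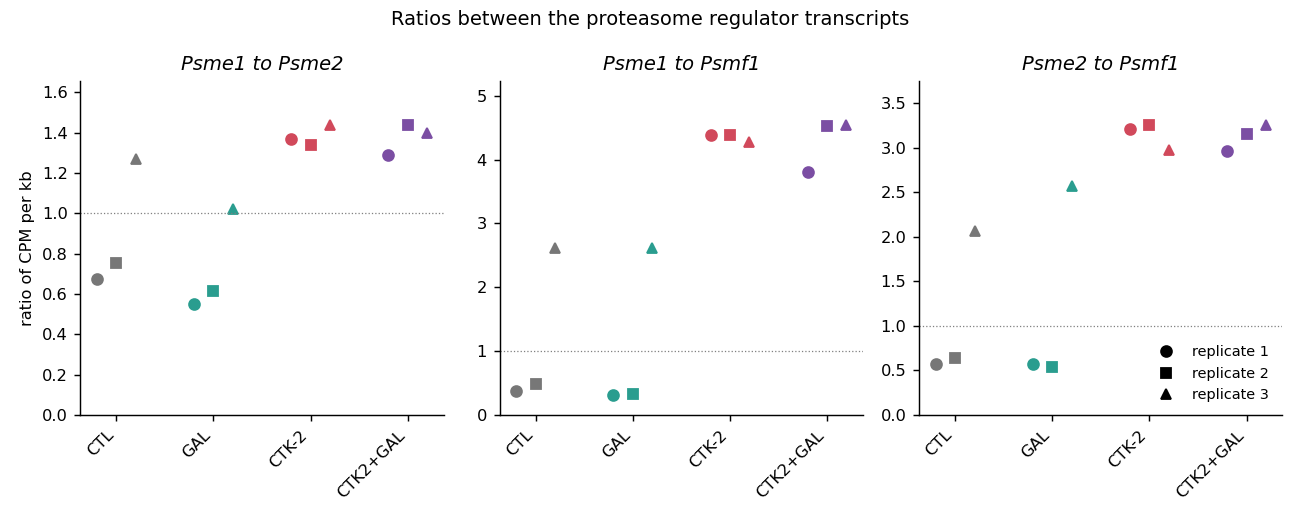
Ratios of CPM per kb between Psme1, Psme2 and Psmf1 in each of the 12 libraries, by group, on axes that start at 0, with a dotted line at a ratio of 1. Psme1 lies below Psme2 in replicates 1 and 2 of CTL and GAL (0.549 to 0.755) and above it in all libraries with cytokines (1.29 to 1.44).

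Replicate 3 of CTL and of GAL did not move by the same share in every gene. Expressed as a share of the distance from the mean of replicates 1 and 2 to the mean of the matching cytokine group, on the CPM scale, B2m reached 24.8% in CTL and 23.9% in GAL. Psme1 reached 25.4% and 23.7%, and Psme2 24.8% and 29.7%, so these 3 lay close together. Psmf1 stood at 4.08% in CTL and at -9.28% in GAL. The median over all 1538 genes called higher in CTK-2 versus CTL was 8.62% in CTL (quartiles 0 and 20.6), and over the 1558 called in CTK2+GAL versus GAL it was 6.25% in GAL (quartiles -2.60 and 18.7).

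Other genes of the pathway could be read only where the study's table gave a symbol, and that table lists genes called under cytokines, so neither their calls nor their medians in the cytokine comparisons are independent of the choice. Of 9 genes for peptide loading, Tap1, Tap2 and Erap1 had a symbol, and of 9 regulators of class I and II genes, Irf1, Irf2, Ciita, Rfx5 and Cd74 had one. None of the 14 core, 18 regulatory particle and 3 inducible proteasome subunits, nor of 13 further activators and assembly factors, had a symbol, and they were not analysed here. All 3 and all 5 were called higher in CTK2+GAL versus GAL, and 0 were called lower. Ciita passed the filter on low values only through the cytokine groups, so its call was fixed by that. On the log2 scale the 3 had a median change of 3.57, against 0.0062 over all tested genes, which were not so chosen. The median over the 5, 4.51, was Irf1's own value and rests on counting Ciita and Cd74 above it. These 2 had few or no counts in each GAL library. Irf2 and Rfx5 stood at 1.22 and 0.63. In the galinex comparisons and the interaction 0 of these 8 were called by edgeR.

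Tap1 and Tap2, the subunits of the peptide transporter, rose by 11.9-fold and 13.9-fold in CTK2+GAL versus GAL (log2 fold changes 3.57, SE 0.964, and 3.79, SE 0.475). Erap1, a peptidase that trims peptides for class I, rose 3.72-fold (log2 fold change 1.89, SE 0.363). Among the regulators the transcription factor gene Irf1 rose 22.7-fold (log2 fold change 4.51, SE 0.768), and Irf2 rose 2.32-fold (1.22, SE 0.0892), close to Psmf1. GAL replicate 3 set the size for some of these genes, with 182 CPM of Tap1 and 65.3 CPM of Irf1 against 5.82 and 6.20 CPM and 4.66 and 3.01 CPM in the other replicates. Without replicate 3 of CTL and of GAL the rises were 134-fold for Tap1, 50.9-fold for Tap2, 7.16-fold for Erap1, 173-fold for Irf1 and 2.50-fold for Irf2. Rfx5, which binds class I and II promoters, rose 1.55-fold (0.63, SE 0.0945), and 1.59-fold without those libraries. Ciita, the class II transactivator, and Cd74, the invariant chain of class II, had no counts in GAL replicates 1 and 2 and 3 and 17 counts in replicate 3, so no fold change is given for them, and Ciita passed the filter on low values through the cytokine groups. With cytokines and galinex they reached 25.4 to 28.8 CPM and 73.3 to 94.1 CPM.

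These genes also differed in replicate 3 of CTL and of GAL. Tap1 reached 24.3% and 21.7% of the distance, close to B2m, while Erap1 reached 40.2% and 39.6%. Tap2 stood at 14.7% and 13.5%, and Irf1 at 12.3% and 10.1%. Ciita and Cd74 reached at most 3.43%, at 3 to 17 counts.

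**Figure D4:**
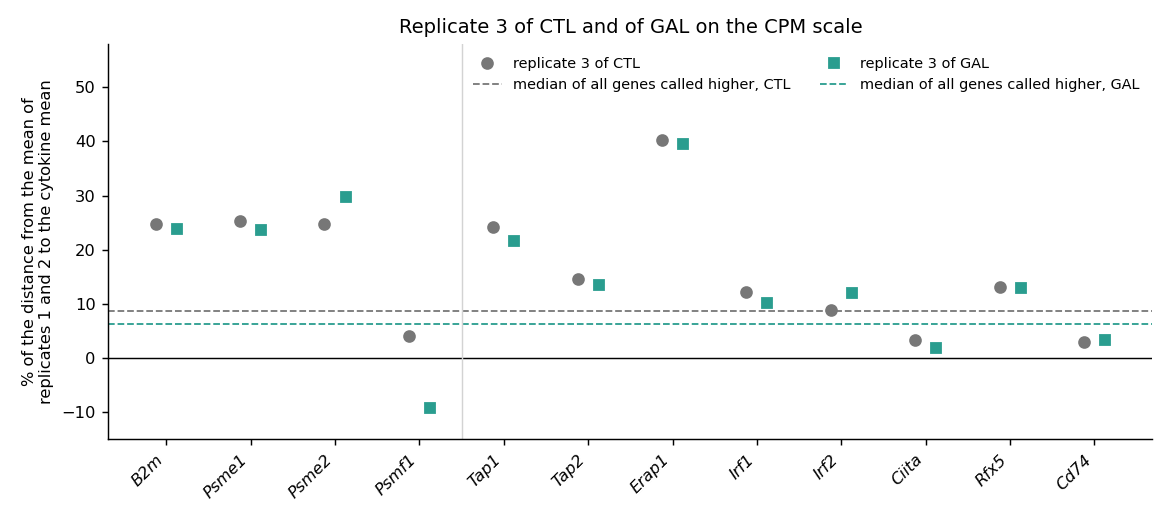
Position of replicate 3 of CTL (circles) and of GAL (squares) between the mean of replicates 1 and 2 of its group (0%) and the mean of CTK-2 or CTK2+GAL (100%), for the 4 genes and 8 others of the pathway, with dashed lines at the medians over all genes called higher. B2m, Psme1 and Psme2 lie between 23.7% and 29.7%, Psmf1 between -9.28% and 4.08%, and the 2 dashed lines at 8.62% and 6.25%.

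Of 14 markers of microglia 4 had a symbol (P2ry12, Csf1r, Ptprc and C1qc), and since symbols came from genes called under cytokines, the rise of these 4 between the groups is fixed by the choice and the other 10 were not analysed here. Microglia were shaken off the flasks before the OPCs were collected. The summed level of the 4 was 2.24, 4.37 and 9.73 CPM in CTL and 3.10, 3.18 and 10.5 CPM in GAL. It was 18.5 to 24.3 CPM in CTK-2 and 19.6 to 20.8 CPM in CTK2+GAL. Ptprc, a marker of haematopoietic cells and microglia, had 0 or 1 count in replicates 1 and 2 of CTL and GAL, 6 in replicate 3 of each and 11 to 23 under cytokines. The part of these cells in the levels of B2m, Psme1 and Psme2 was not tested. The endothelial marker Kdr, named through the same table, lay between 0.335 and 1.55 CPM without cytokines and between 3.97 and 7.78 CPM with them. None of the listed astrocyte, neuron or T and NK cell markers had a symbol, and they were not analysed here.

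Around the 4 genes the rise was not shared by all neighbours. Within 50 kb of B2m and of Psmf1, 1 other tested gene each was found, and neither was called in the cytokine comparisons. Near Psme1 and Psme2, Rnf31, a subunit gene of the linear ubiquitin ligase, starts 684 bases beyond the start of Psme2 on the opposite strand. It rose 2.49-fold in CTK2+GAL versus GAL (log2 fold change 1.32, SE 0.155). A gene without a symbol inside the Rnf31 span (ENSRNOG00000019478, mRatBN7.2 chr15:29095789-29101236) was also called, at a log2 fold change of 2.58 (SE 0.654). It overlaps Rnf31 on the same strand, and pairs that fit both were not counted. Of the 7 tested genes within 50 kb of Psme1, these 2 and Psme2 were called higher and the other 4 were not called. Among all tested genes 11.7% were called higher in CTK2+GAL versus GAL. Psme2 was chosen for its change and the unnamed gene overlaps Rnf31, so the 3 are not separate cases.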

How the data were processed

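The count values of the 12 libraries were deposited as whole read pairs per gene, neither normalized nor filtered. Per the file headers featureCounts 2.0.0 summed them over exons by gene, using Ensembl release 112 for the build mRatBN7.2, for reversely stranded pairs with both ends mapped, without chimeric pairs or marked duplicates. Quality control used FastQC and alignment used STAR, with versions not given in the sources used here.

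Genes carry Ensembl identifiers. Symbols came from the study's table of 1786 called genes, joined by its mean column and, among genes of equal mean, by chromosome, which named 1756. Among 733 table entries that were not used to fit the join and had a single gene of that mean, 99.9% were on the RefSeq chromosome of their symbol. The table's own comparison columns (fold changes, p-values) were not used. The members and lists were chosen with earlier results of these data known.

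The counts of 13348 genes with a mean of at least 5 were normalized by TMM and fitted in R 4.3.3 with the edgeR 4.0.16 quasi-likelihood model, with 1 mean per group over all 12 libraries. The SE is the absolute log2 fold change over the root of the F statistic. Calls needed a Benjamini-Hochberg adjusted p of at most 0.05 over all tested genes and a log2 fold change of 0.59 or more in size. Intervals are 95% and are not adjusted for multiple comparisons. Named genes were the members, up to 5 called genes of each pathway list, copies of members, and the 5 most alike genes. Replicate numbers were used to pair CTL with GAL, where same-numbered libraries deviated together (r = 0.258, 0.260 and 0.596 over genes). No other groups were paired in this way (r from -0.00271 to 0.0707). Deviations were taken from the group mean, so a shared shift of replicate 3 also raises r for replicates 1 and 2. Differently numbered libraries were not compared, so the matching of replicates 1 and 2 was not tested. Alternatives were DESeq2 1.42.0, other normalizations and filters, 2 groups only, a replicate block and each library left out.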

Additional observations from a re-analysis of the deposited data

How the results depend on the processing

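The 4 members were called in both cytokine comparisons under edgeR with DESeq2 size factors, total counts, no filter on low counts, a filter that drops the 15% least variable genes by interquartile range, 2 groups only, and no fold change threshold. With no filter the SE of B2m in CTK2+GAL versus GAL was 0.0599, against 1.14 in the main fit on the same counts. For Psme1 and Psme2 it was 0.0796 and 0.0777 with no filter, against 0.547 and 0.399. The fit with no filter did not carry the spread between the GAL libraries. Its calls of B2m, Psme1 and Psme2 are therefore no separate check. DESeq2 called 2 of the members and 1 of the 3 peptide loading genes in each, and gave the others no adjusted p. Leaving out single libraries left 3 to 4 members called in both, the lost call being B2m, and 0 called in the galinex comparisons and the interaction. Without replicate 3 of CTL and of GAL, and without replicate 3 of all groups, 4 members stayed called in both.

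With the replicate block, 4 members were called in both cytokine comparisons and 0 in the others, so the block changed no call. It moved B2m to a log2 fold change of 5.35 in CTK-2 versus CTL and 5.28 in CTK2+GAL versus GAL. The block gives all 4 groups the same shift for a replicate number. B2m in replicate 3 was 32.7 and 29.9 times the mean of the other replicates in CTL and GAL. In CTK-2 and CTK2+GAL it was 0.997 and 1.10 times that mean. The B2m values with the block thus rest on a shift that the cytokine groups did not show.

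Signs turned only in uncalled values. In GAL versus CTL, single omissions gave log2 fold changes from -3.31 to 3.63 for B2m, -1.79 to 1.52 for Psme1 and -0.92 to 1.19 for Psme2. For the interaction they gave -3.53 to 3.41 for B2m, -1.46 to 1.85 for Psme1, -1.12 to 0.99 for Psme2 and -0.042 to 0.046 for Psmf1. The interaction of B2m was -0.065 with the replicate block, -0.16 without replicate 3 of CTL and of GAL and -0.21 without replicate 3 of all groups. Those of Psmf1 in the latter fits were -0.067 and -0.061, and that of Psme2 was 0.060 without replicate 3 of CTL and of GAL. The libraries that moved these values were chiefly replicate 3 of CTL and of GAL, and the cause was not tested. Counts were lowest in GAL replicate 1, where Psme1 rests on 29 counts.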

Other observations

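Across the 12 libraries the tested genes most like each member in log2 CPM, by Pearson's r with a pseudocount of 0.5 CPM, were partly without a symbol. Those named were Stat4 (r = 0.999) and Tap1 (0.998) for B2m. For Psme1 they were Irf8, Csf1, Ifi27 and Lgals3bp (0.998 to 0.999), and for Psme2 they were Ifi27, Bst2, Psme1 and Ifi47 (0.997 to 0.999). Psmf1 had other partners, Ednrb, Tgm2, Khnyn, Tmem270 and Tmod1 (0.993 to 0.997), and r between 0.828 and 0.895 with the other members. In the 6 libraries without cytokines Psmf1 had r between -0.330 and -0.249 with the other members, and none of its 5 most alike genes had a symbol. In these 6 the named genes most like B2m were Clec2g and Rsad2 (0.997), those most like Psme1 were Tap1, Irf8 and Csf1 (0.998 to 0.999), and those most like Psme2 were RT1-T24-4, Trim34, Apol9a and Ifit1 (0.997 to 0.999). The libraries fall into separate clusters, so these values are a description without a test, and in the 6 libraries they rest on replicate 3 of CTL and of GAL.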
